A study of Homo sapiens with 8 samples.

Results

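The genes described here are MYC and 9 genes that set the pace of the G1 phase of the cell cycle: the D-type cyclins CCND1, CCND2 and CCND3, the kinase CDK6 and the kinase inhibitors CDKN1A, CDKN1B, CDKN2A, CDKN2B and CDKN2C. They are 10 of the 20163 protein-coding genes of the annotation and were named by symbol, not by a rule on their binding. Earlier results of these data were known when they were chosen. A binding peak was counted for a gene if its summit, the position of the highest signal, lay in the gene body or within 20 kb of it. By this rule 298 of the 235023 peaks of the series fell at the 10 genes. The windows of CDKN2A and CDKN2B overlap, and a peak in both was counted once in this total.

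The peaks came from ChIP-seq, which sequences the DNA fragments that an antibody pulls down with a protein. The cells were U937, a human monoblastic line, in which doxycycline at 5 µg/ml induced an HA-tagged fusion protein from a retroviral vector. AML1-ETO was studied in the U937-AE line and ETO2-GLIS2 in the U937-EG line, each a single clone, and chromatin was precipitated with anti-HA beads after 12 h or 48 h of induction. AML1-ETO carries the Runt domain of RUNX1, which reads DNA, fused to the corepressor-binding part of RUNX1T1. ETO2-GLIS2 fuses CBFA2T3, a relative of RUNX1T1, with the GLIS2 zinc fingers. All 4 groups therefore shared the cell line, the tag, the inducer and the antibody. Each had 1 ChIP library with a peak list and 1 input library without a list here, so no difference between proteins or times has a replicate check, and none was tested. Cells without a fusion protein and cells without doxycycline have no peak list among these data.

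The lists held 70833 peaks for AML1-ETO at 12 h, 105769 for AML1-ETO at 48 h, 28325 for ETO2-GLIS2 at 12 h and 30096 for ETO2-GLIS2 at 48 h. The lists were used whole and are longer than the peak sets counted in the study, by a selection that is not given in the sources used here, so counts, ranks and shared shares are those of the deposited lists. The lists carry no read numbers behind a peak. The study lists the reads of each library, and among the ChIP libraries the ETO2-GLIS2 library at 48 h had the fewest. Fold enrichment and q-values rise with depth and with the quality of a precipitation. Strength is therefore given as the rank of a peak by its q-value in its own list, where rank 1 is the strongest, together with the rank as a percent of that list. Fold enrichment, which sets the ChIP signal of a summit against the background expected from the input, is comparable only within a list.

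D-type cyclins are made in response to growth signals and bind CDK4 or CDK6, and the active kinase phosphorylates the RB protein so that E2F factors can start the genes of S phase. INK4 proteins (CDKN2A, CDKN2B and CDKN2C) block CDK4 and CDK6, and Cip/Kip proteins (CDKN1A and CDKN1B) act on further cyclin-kinase complexes, above all those of CDK2. MYC is a transcription factor that pairs with MAX and drives cell growth, and in blood cells it is under the control of remote enhancers far downstream of the gene. AML1-ETO can bring corepressors with histone deacetylases to the sites that it occupies, and coactivators as well.

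Sequence under the summits is shown for some of the members, from windows with and without a match to the letters searched. Each line gives the plus strand of GRCh37 (the assembly of hg19) from 50 bases before to 50 bases after the summit of the strongest peak of a protein at 48 h. The capitals mark matches to the letters searched on both strands, which were TGTGGT and TGCGGT for Runt domains, TGGGGGG for GLIS zinc fingers, CCGGAAGT for ETS factors, CAGCTG and CACGTG for E-boxes, and TGACTCA or TGAGTCA for AP-1. A line without capitals holds none of these letters.
CCND1, ETO2-GLIS2, chr11:69457694-69457794: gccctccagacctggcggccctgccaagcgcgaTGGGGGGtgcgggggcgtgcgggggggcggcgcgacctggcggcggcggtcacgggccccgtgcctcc
CDK6, ETO2-GLIS2, chr7:92465996-92466096: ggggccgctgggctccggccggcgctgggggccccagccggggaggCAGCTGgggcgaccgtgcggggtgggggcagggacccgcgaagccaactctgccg
CDK6, AML1-ETO, chr7:92384491-92384591: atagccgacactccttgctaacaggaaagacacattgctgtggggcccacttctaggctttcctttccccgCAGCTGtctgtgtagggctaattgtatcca
CDKN1A, AML1-ETO, chr6:36646324-36646424: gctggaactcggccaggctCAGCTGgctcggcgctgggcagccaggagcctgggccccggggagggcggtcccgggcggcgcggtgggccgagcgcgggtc
CDKN1A, ETO2-GLIS2, chr6:36635086-36635186: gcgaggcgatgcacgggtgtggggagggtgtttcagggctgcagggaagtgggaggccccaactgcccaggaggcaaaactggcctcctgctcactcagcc
CDKN1B, ETO2-GLIS2, chr12:12869774-12869874: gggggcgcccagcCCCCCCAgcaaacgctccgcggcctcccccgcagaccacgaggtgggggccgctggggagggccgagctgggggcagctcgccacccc
CDKN1B, AML1-ETO, chr12:12878554-12878654: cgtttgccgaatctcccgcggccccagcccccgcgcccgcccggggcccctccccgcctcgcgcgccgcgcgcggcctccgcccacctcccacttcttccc
CDKN2A, ETO2-GLIS2, chr9:21994669-21994769: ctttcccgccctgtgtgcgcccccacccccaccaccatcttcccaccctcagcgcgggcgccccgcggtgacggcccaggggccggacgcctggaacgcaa
The windows of CCND1 and CDKN1B under ETO2-GLIS2 held TGGGGGG, at CDKN1B on the minus strand. That of CCND3 under ETO2-GLIS2 at 48 h (chr6:41904021-41904121, rank 189) held it too, on the minus strand, and is named only, since it touches an annotated UTR. Both CDK6 windows and the AML1-ETO window of CDKN1A held CAGCTG. The windows of CDKN1A under ETO2-GLIS2, CDKN1B under AML1-ETO and CDKN2A under ETO2-GLIS2 held no match. At the members other than MYC, no window of the strongest AML1-ETO peak at 48 h held TGTGGT or TGCGGT, the Runt letters. GC content was high in the windows at start sites, at 81.2% for CDKN1B under ETO2-GLIS2 and 81.2% for CDKN1A under AML1-ETO, and 51.5% in the CDK6 window under AML1-ETO, which lies in an intron.

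Every one of the 10 genes had at least 1 peak in each of the 4 lists. Among all protein-coding genes the share with a peak in the gene or within 20 kb was 77.6% for AML1-ETO at 12 h, 80.3% for AML1-ETO at 48 h, 66.4% for ETO2-GLIS2 at 12 h and 66.0% for ETO2-GLIS2 at 48 h, and 59.7% of genes had a peak in all 4 lists. A peak near a gene was thus common in these lists, at any gene. Per 100 kb of window the density at the 10 genes together was 9.57 for AML1-ETO at 12 h and 14.2 at 48 h, against 4.65 and 7.03 over the windows of all protein-coding genes. For ETO2-GLIS2 the density was 5.23 peaks per 100 kb at 12 h and 5.23 at 48 h, against 2.10 and 2.36. The density was above the median of all genes for 9 of the 10 members in the first 3 lists and for 10 of 10 in the ETO2-GLIS2 list at 48 h.

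A summit within 1 kb of an annotated start site of the gene was present at 10 of 10 genes for AML1-ETO at both times, at 9 for ETO2-GLIS2 at 12 h and at 10 for ETO2-GLIS2 at 48 h. The background for these counts was 54.0%, 59.8%, 42.8% and 45.7% of all protein-coding genes, and 35.8% of genes had such a peak in all 4 lists, against 9 of the 10 members. CDKN2B was the member without a start-site peak in the ETO2-GLIS2 list at 12 h. The members had a median of 7 annotated start sites per gene and all protein-coding genes 5, so the members had more places at which a peak could be counted. With the start of the principal (MANE Select) transcript alone, an alternative chosen after seeing the data, the counts were 7, 4, 6 and 7 members, against 48.5%, 53.0%, 38.6% and 41.7% of all genes with such a transcript. The 4 members left for AML1-ETO at 48 h were CCND2, CDKN1A, CDKN1B and CDKN2B. At MYC and CDK6 a wide AML1-ETO peak covered the principal start at 48 h while its summit lay more than 1 kb inside the gene.

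**Figure D1:**
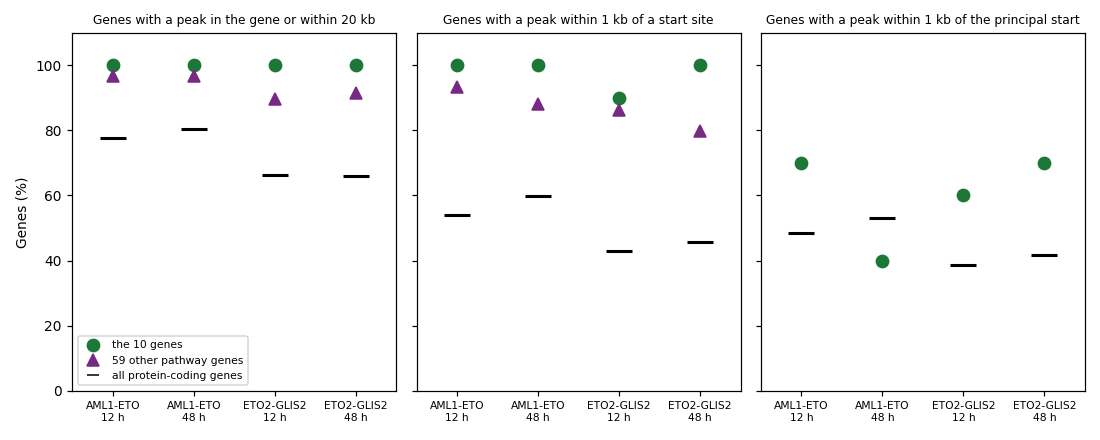
Share of genes (%, y axis) with a peak in each of the 4 lists (x axis), by 3 definitions of a peak at a gene. Circles are the 10 members, triangles the 59 other cell cycle and MYC network genes (not computed for the principal start) and bars all protein-coding genes; the members lie above the bars except for AML1-ETO at 48 h with the principal start, where 4 of 10 members stand against 53.0%.

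MYC (chr8:128747680-128755197, plus strand) held its strongest AML1-ETO peak in intron 1, with the summit 2351 bp inside the gene at both times. At 12 h this peak was 4403 bp wide, had rank 1735 (2.45% of the list) and a fold enrichment of 30.1. At 48 h it was 7061 bp wide, had rank 483 (0.457%) and a fold enrichment of 53.4, and it covered the gene start. The same stretch held 4 ETO2-GLIS2 peaks at each time, and the intron 1 summit was 2363 bp from the gene start at 12 h (rank 7505, 26.5% of the list) and 2366 bp at 48 h (rank 4591, 15.3%). The 4 summits thus lay within a few bases of each other and 40 to 55 bp from a start of a shorter MYC transcript, and the start of the lncRNA CASC11 was 1187 to 1202 bp away. At 12 h the strongest ETO2-GLIS2 peak of MYC was not this peak but that at -156 bp (rank 5899, 20.8%). At 48 h the peak just upstream, at -147 bp, had rank 5602 (18.6%) and the higher fold enrichment, 12.9 against 11.9.

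The stretch of 2 Mb downstream of MYC contains the lncRNA genes PVT1 and CCDC26 and known blood enhancers of MYC. AML1-ETO had 70 peaks there at 12 h and 105 at 48 h, those at the MYC gene itself included. ETO2-GLIS2 had 23 and 15. Among the strongest 10% of their lists were 4 of the 70 and 5 of the 105 AML1-ETO peaks and 0 ETO2-GLIS2 peaks at either time. The AML1-ETO shares were thus under the 10% of a whole list, and the intron 1 peak of MYC was among those counted at both times. Of 23 and 15 ETO2-GLIS2 peaks, a share of 10% would be only a few. After the MYC peak, the strongest AML1-ETO peak at 12 h was in CCDC26, 1847 kb from the MYC start (rank 3541, 5.00%). It overlapped an ETO2-GLIS2 peak. A site in CCDC26 about 1857 kb from the MYC start was listed for both proteins at both times, with rank 5680 (8.02%) and 10412 (9.84%) for AML1-ETO and rank 6267 (22.1%) and 5428 (18.0%) for ETO2-GLIS2. At 1931 kb AML1-ETO had rank 7923 (7.49%) at 48 h and ETO2-GLIS2 rank 7205 (25.4%) at 12 h. Another site in CCDC26, 1238 kb from the MYC start, was listed for AML1-ETO at both times (rank 6362 and 7470) and overlapped no ETO2-GLIS2 peak. In PVT1, ETO2-GLIS2 had a peak 154.8 kb from the MYC start at both times (rank 4487, 15.8%, and 6494, 21.6%), and AML1-ETO at 48 h had a peak of 4395 bp with its summit 156.4 kb away (rank 8986, 8.50%). Between 1000 and 1500 kb no ETO2-GLIS2 peak was listed at either time. The first and the last 500 kb held 48 and 49 of the 105 AML1-ETO peaks at 48 h and 29 and 25 of the 70 at 12 h. For ETO2-GLIS2 they held 7 and 6 of 15 at 48 h and 8 and 11 of 23 at 12 h. The peaks between them included the site at 1238 kb, the second in rank for AML1-ETO at 48 h, and a site 532.4 kb from the MYC start that was the second in rank for ETO2-GLIS2 at 12 h (rank 5335, 18.8%).

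Of the D-type cyclins, CCND1 (chr11:69455924-69469242, plus strand) had the fewest peaks, with 3 and 6 of AML1-ETO at 12 h and 48 h, and 3 and 2 of ETO2-GLIS2. Its strongest peak in each list lay 1820 to 2295 bp inside the gene. For AML1-ETO it had rank 7259 (10.2% of the list) at 12 h and rank 3918 (3.70%) at 48 h, with summits in intron 2. For ETO2-GLIS2 it had rank 6126 (21.6%) at 12 h and rank 4213 (14.0%) at 48 h, the latter with the summit in intron 1. All 4 summits were 261 to 736 bp upstream of an internal start site, so CCND1 counted as bound at a start although no ETO2-GLIS2 summit lay within 1 kb of the first start of the gene. No peak of any list covered that first start, which is also the principal start.

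CCND2 (chr12:4378937-4414519, plus strand) had 8 and 12 AML1-ETO peaks and 4 and 3 ETO2-GLIS2 peaks, and 3 stretches were bound in all 4 lists. The first was just upstream of the gene, with summits from -444 to -263 bp, and ranks of 30481, 22865, 8593 and 7194 for AML1-ETO at 12 h and 48 h and ETO2-GLIS2 at 12 h and 48 h. The next lay about 3 kb inside the gene, upstream of the principal start, with AML1-ETO ranks of 2936 (4.14%) at 12 h and 1209 (1.14%) at 48 h, in a peak 5081 bp wide at 48 h. ETO2-GLIS2 had ranks of 7346 (25.9%) and 5893 (19.6%) there. The third stretch was 51454 bp from the CCND2 start, beyond the end of the gene, 12 bp from a start of TIGAR, a gene for a phosphatase of sugar metabolism. The summit was at the same base for AML1-ETO at both times and for ETO2-GLIS2 at 48 h. It was the strongest AML1-ETO peak of the CCND2 window, with rank 1855 (2.62%) and 1017 (0.962%), while ETO2-GLIS2 had rank 10683 (37.7%) and 9052 (30.1%). The strongest AML1-ETO peak counted for CCND2 was therefore at the start of a neighbouring gene.

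CCND3 (chr6:41902672-42018095, minus strand) had the strongest peak of the set in both 12 h lists. A single AML1-ETO peak of 9481 bp at 12 h and 9699 bp at 48 h covered the principal start, and its summit lay in intron 4 of the principal transcript, 5353 and 5342 bp from that start. It had rank 138 (0.195% of the list) and a fold enrichment of 65.1 at 12 h, and rank 1618 (1.53%) and 27.3 at 48 h. ETO2-GLIS2 had a pair of peaks in the same stretch. The stronger, in intron 4, had rank 68 (0.240%) and a fold enrichment of 122 at 12 h, and rank 189 (0.628%) and 104 at 48 h. The other, in intron 2 and 2123 to 2134 bp from the principal start, had rank 724 (2.56%) at 12 h and 1015 (3.37%) at 48 h and was 4852 and 4884 bp wide. The share of all protein-coding genes with a peak at least as strong in their window was 0.992% for AML1-ETO at 12 h, 11.8% at 48 h, 0.610% for ETO2-GLIS2 at 12 h and 1.62% at 48 h.

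CCND3 also had the most peaks of the set, with 22 and 31 of AML1-ETO against 11 and 10 of ETO2-GLIS2, in a window of 155424 bp. In the long stretch between the gene start and the principal start, 33076 to 33092 bp from the gene start, all 4 lists had a summit within 16 bp. The ranks at this site were 10594 (15.0%) and 10952 (10.4%) for AML1-ETO, against 11245 (39.7%) and 6489 (21.6%) for ETO2-GLIS2. A further site about 22 kb from the gene start was stronger for AML1-ETO, with rank 2611 (3.69%) and 2862 (2.71%) against 5918 (20.9%) and 7344 (24.4%). The peaks at -238 to -313 bp lay within 40 bp of a start of TAF8, and those about 129 kb from the gene start were at starts of MED20 and BYSL, so part of the count belongs to neighbouring genes as much as to CCND3.

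CDK6 (chr7:92234235-92465887, minus strand), the kinase partner of the D-type cyclins, had its strongest ETO2-GLIS2 peak at the start of the gene. The summit was at -143 bp at 12 h, with rank 1206 (4.26%), a width of 3848 bp and a fold enrichment of 37.6. At 48 h it was at -159 bp, with rank 978 (3.25%), a width of 2958 bp and a fold enrichment of 48.3. The divergent lncRNA CDK6-AS1 starts 234 to 250 bp from these summits. AML1-ETO peaks covered the same start, with their strongest summits there 2444 bp (12 h, rank 10893, 15.4%) and 3419 bp (48 h, rank 8395, 7.94%) inside the gene, in a peak that was 6316 bp wide at 48 h. At 12 h AML1-ETO also had a weaker peak at -95 bp (rank 18815, 26.6%), and ETO2-GLIS2 had weaker peaks inside the gene, 3443 bp from the start at 12 h (rank 9798, 34.6%) and 3484 bp at 48 h (rank 9471, 31.5%). Both proteins were thus listed at and just inside the CDK6 start, with the strongest summit at the start for ETO2-GLIS2 and inside the gene for AML1-ETO.

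The strongest AML1-ETO peak of CDK6 was in intron 3, 81272 bp from the start at 12 h (rank 4750, 6.71%) and 81346 bp at 48 h (rank 3776, 3.57%). ETO2-GLIS2 had a peak there too, 81109 and 81115 bp from the start, with rank 4455 (15.7%) and 4586 (15.2%). A site in intron 5, 202924 and 202925 bp from the start, was listed for AML1-ETO alone, with rank 14480 (20.4%) and 19839 (18.8%). The site bound in all 4 lists about 246 kb from the CDK6 start was at a start of FAM133B. AML1-ETO had rank 18814 (26.6%) and 14164 (13.4%) there, and ETO2-GLIS2 28308 (99.9%) and 11649 (38.7%). The ETO2-GLIS2 peak at 12 h was thus among the weakest of its list. In the largest window of the set, 271653 bp, CDK6 had 18 and 22 AML1-ETO peaks and 4 and 6 ETO2-GLIS2 peaks, and its 1.47 and 2.21 ETO2-GLIS2 peaks per 100 kb were the lowest densities among the 10 genes.

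**Figure D2:**
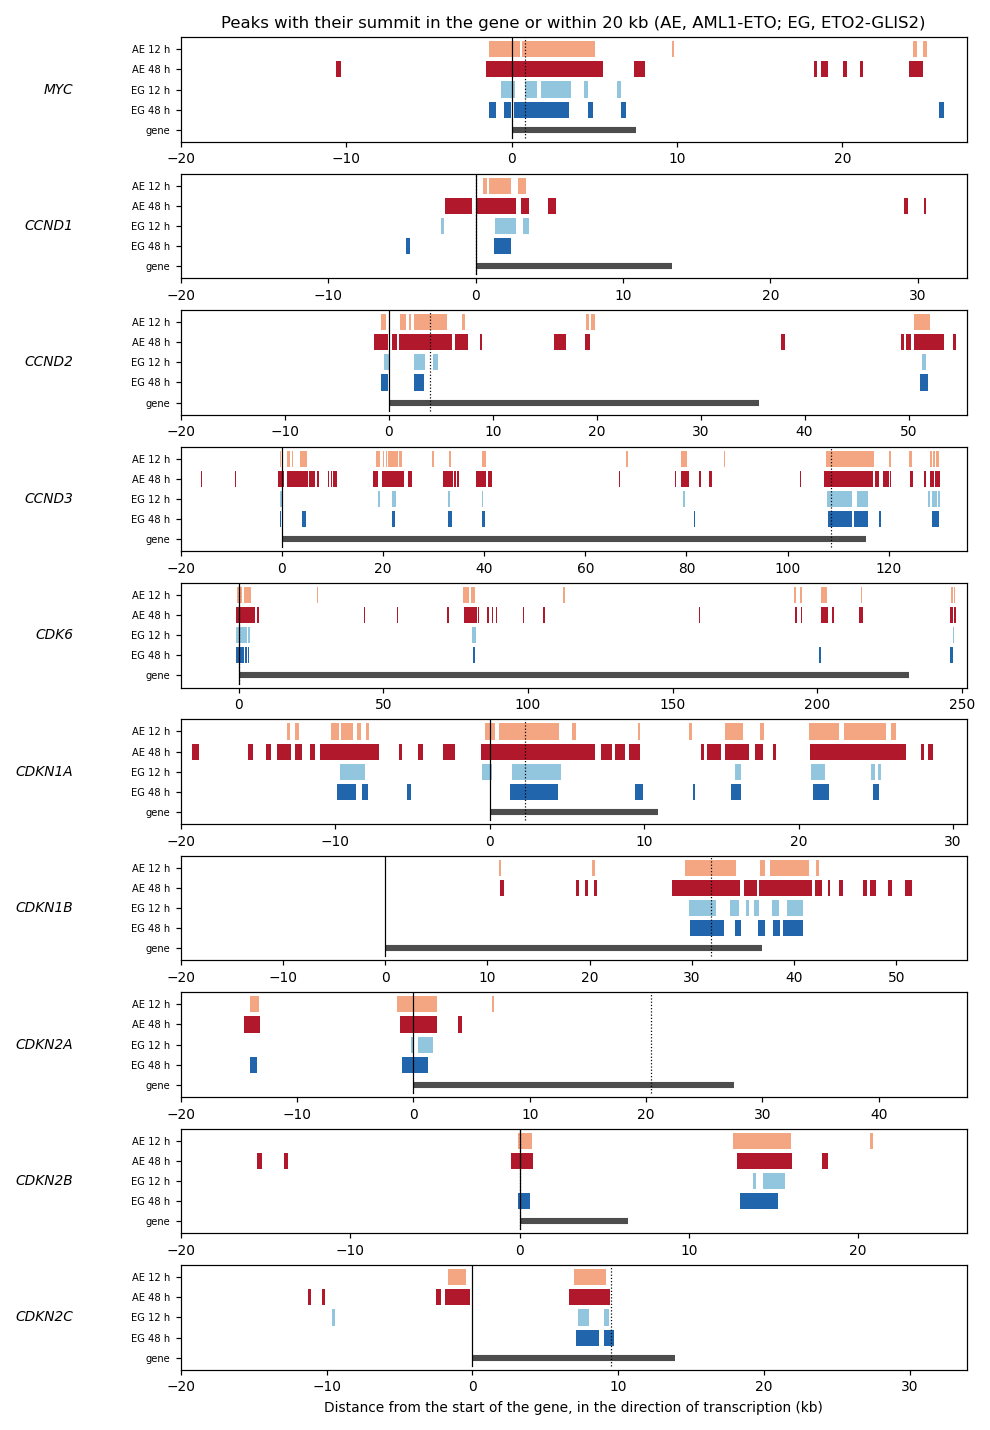
Peaks of the 4 lists at each gene, by distance from the gene start in the direction of transcription (kb, x axis; each panel has its own scale). Blocks span the peaks, with a drawn minimum of 1 part in 500 of the panel; the grey bar is the gene, the solid line its first start and the dotted line the principal start. Wide AML1-ETO blocks at 48 h cover the MYC start and the principal starts of CCND3, CDKN1A and CDKN1B, and no block covers the principal start of CDKN2A or CCND1.

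CDKN1A (chr6:36644237-36655114, plus strand), a main target of p53 and a brake on CDK2, was the most densely bound gene of the set. It had 16 and 22 AML1-ETO peaks and 7 and 9 ETO2-GLIS2 peaks in a window of 50878 bp, or 31.4 and 43.2 AML1-ETO and 13.8 and 17.7 ETO2-GLIS2 peaks per 100 kb. AML1-ETO peaks at 48 h covered 54.3% of the window, against 27.3% at 12 h, and ETO2-GLIS2 peaks covered 14.2% and 14.9%. The strongest AML1-ETO peak sat at the principal start, with the summit -133 bp from it at 12 h and -117 bp at 48 h, rank 657 (0.928%) and 548 (0.518%), and widths of 3910 and 7422 bp. ETO2-GLIS2 summits were at -198 and -179 bp, with rank 2335 (8.24%) and 1894 (6.29%). All 4 summits lay within 43 bp of the start of DINOL, a lncRNA transcribed near CDKN1A.

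The strongest ETO2-GLIS2 peak of CDKN1A was upstream of the gene, at -9102 bp at 12 h and -9101 bp at 48 h, with rank 880 (3.11%) and 792 (2.63%). AML1-ETO peaks had their summits at -9085 and -9182 bp, with rank 6822 (9.63%) and 2750 (2.60%). The proteins thus shared both sites, and in its own list each had a different one as its strongest. Further stretches bound in all 4 lists lay about 16 kb and 21 kb from the gene start, the latter at a start of RAB44, where ETO2-GLIS2 had rank 3062 (10.8%) and 5021 (16.7%) and AML1-ETO rank 12708 (17.9%) and 13468 (12.7%).

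CDKN1B (chr12:12838432-12875303, plus strand), an inhibitor that holds cells in G1, carried the strongest ETO2-GLIS2 promoter peak of the set. The summit was -499 bp from the principal start at 12 h, with rank 282 (0.996%) and a fold enrichment of 78.0, and -478 bp at 48 h, with rank 175 (0.581%) and a fold enrichment of 106. The AML1-ETO summits were at -495 and -447 bp, with rank 3282 (4.63%) and 3023 (2.86%), in peaks of 4965 and 6591 bp. The 4 summits lay within 52 bp of each other. The strongest AML1-ETO peak of the window was elsewhere, 39729 and 40172 bp from the gene start, past the end of CDKN1B and 247 to 690 bp from a start of APOLD1. It had rank 704 (0.994%) and 625 (0.591%), and ETO2-GLIS2 had rank 6130 (21.6%) and 4711 (15.7%) there. As at CDKN1A, both proteins were listed at both sites and their order of strength differed. The window of CDKN1B held 6 peaks of AML1-ETO at 12 h and 14 at 48 h. ETO2-GLIS2 had 6 and 5.

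CDKN2A (chr9:21967751-21995300, minus strand) has alternative starts: transcripts from upstream starts encode ARF, which stabilises p53, and those from the principal start encode the INK4 protein. The upstream starts were bound in all 4 lists, with summits 1054 and 1046 bp inside the gene for AML1-ETO, against 898 and 581 bp for ETO2-GLIS2, all within 153 bp of an annotated start and within 147 bp of a start of the antisense lncRNA CDKN2B-AS1. The ranks were 3804 (5.37%) and 6648 (6.29%) for AML1-ETO, against 7171 (25.3%) and 6468 (21.5%) for ETO2-GLIS2. At the principal start no list had a peak over it. The nearest summits were at -13557 and -16340 bp from it for AML1-ETO and at -19546 and -19863 bp for ETO2-GLIS2. Binding at CDKN2A was therefore listed at the starts of the ARF transcripts and not at that of the INK4 transcript. Inputs were not analysed here, so the lists do not show whether DNA around the principal start was recovered from these cells.

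CDKN2B (chr9:22002902-22009304, minus strand) had a peak at its start in 3 of the 4 lists. The AML1-ETO summits were 42 and 54 bp inside the gene, with rank 15963 (22.5%) and 9290 (8.78%). ETO2-GLIS2 had no peak there at 12 h and a peak of 678 bp at 517 bp at 48 h, with rank 11668 (38.8%). The stronger peak counted for CDKN2B, about 15 kb away, is the one at the upstream starts of CDKN2A.

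CDKN2C (chr1:51426417-51440306, plus strand) held the strongest AML1-ETO peak of the set that overlapped no ETO2-GLIS2 peak, at either time. The peak was at -827 bp, with the summit at the same base at both times, 180 bp from a start of FAF1, and had rank 4178 (5.90%) at 12 h and 3075 (2.91%) at 48 h. It was also the strongest AML1-ETO peak of the CDKN2C window. At a later start of CDKN2C, about 7.5 kb inside the gene, all 4 lists had a peak, and the ETO2-GLIS2 summits 7497 and 7512 bp from the gene start had rank 3505 (12.4%) and 2861 (9.51%). AML1-ETO had rank 10660 (15.0%) and 9351 (8.84%) there. The summits of the 4 lists were -491 to -236 bp from that start, and from the principal start those of AML1-ETO were -1775 and -2030 bp away. ETO2-GLIS2 had another summit nearer to the principal start, at -407 bp at 12 h and 46 bp at 48 h. Only the ETO2-GLIS2 list at 48 h had a peak over the principal start.

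**Figure D3:**
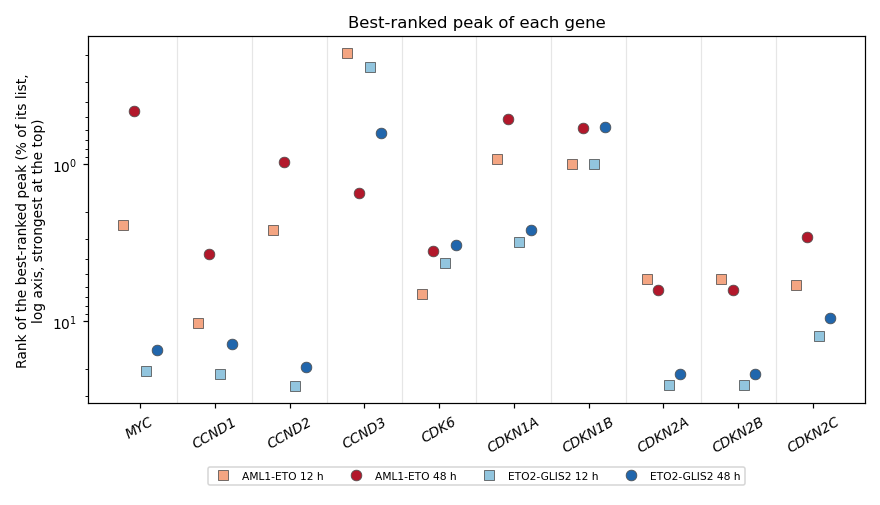
Rank of the strongest peak of each gene as a percent of its list (y axis, log scale, strongest at the top) in the 4 lists (squares 12 h, circles 48 h; red AML1-ETO, blue ETO2-GLIS2). CCND3 and CDKN1B lie at or under 1.53% in all 4 lists, and the lists differ in length, so an equal height is not an equal rank number.

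Across the set, the strongest peak of a gene ranged from 0.195% of the list (CCND3) to 10.2% (CCND1) for AML1-ETO at 12 h and from 0.457% (MYC) to 6.29% (CDKN2A and CDKN2B) at 48 h. For ETO2-GLIS2 the range was 0.240% (CCND3) to 25.9% (CCND2) at 12 h and 0.581% (CDKN1B) to 21.5% (CDKN2A and CDKN2B) at 48 h. The AML1-ETO list is the longer, so an equal percent is a higher rank number there, and the order of the proteins at a gene can depend on the measure. At MYC, CCND2 and CDKN1A AML1-ETO was ahead at both times in percent of the list and in rank number. The order differed between the measures at CCND1, CCND3 and CDKN1B at 12 h, CDKN2C at both times, and CDKN2A and CDKN2B at 48 h. There AML1-ETO was ahead in percent of the list and ETO2-GLIS2 in rank number. At CDKN1B at 12 h the percents were almost equal, 0.994% and 0.996%. This order compares the strongest peaks of each window, which were not always at the same site. The proteins had them at different sites at CCND2, CDK6, CDKN1A, CDKN1B and CDKN2C, and at MYC at 12 h. At the CDKN1B promoter itself ETO2-GLIS2 was ahead in both measures at 12 h, with rank 282 (0.996%) against 3282 (4.63%). At 48 h it was ahead there too, with rank 175 (0.581%) against 3023 (2.86%). Of all member peaks, 14.5%, 12.8%, 13.3% and 15.6% were among the strongest 10% of their lists.

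The overlap of the proteins was unequal in the 2 directions. Of the 45 ETO2-GLIS2 peaks at 12 h, 39 (86.7%, 95% Clopper-Pearson interval 73.2 to 94.9) overlapped an AML1-ETO peak of the same time by at least 1 bp, and at 48 h 38 of 45 did (84.4%, 70.5 to 93.5). The whole ETO2-GLIS2 lists stood at 74.5% and 83.4%. Of the AML1-ETO peaks, 33 of 83 (39.8%, 29.2 to 51.1) at 12 h and 27 of 125 (21.6%, 14.7 to 29.8) at 48 h overlapped an ETO2-GLIS2 peak, against 26.2% and 17.8% of the whole lists. The whole-list share lay below the interval of the members for AML1-ETO at 12 h and inside it in the other 3 lists. The intervals cover counting error only, and peaks of a gene are not independent. With the 28325 strongest peaks of each list, the 10 genes had 37 and 36 AML1-ETO peaks and 45 and 44 ETO2-GLIS2 peaks, and 75.7% and 69.4% of the AML1-ETO peaks were then shared.

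The shared peaks were wider and stronger than the unshared ones. Median width at the members was 1307 bp for shared and 277 bp for unshared AML1-ETO peaks at 12 h, 2961 and 346 bp at 48 h, 627 and 256 bp for ETO2-GLIS2 at 12 h, and 685 and 226 bp at 48 h. Their median ranks were 17.9% against 65.5%, 8.78% against 62.4%, 36.6% against 77.1% and 24.2% against 88.6% of the lists. The whole lists had the same order, with median widths of 1968 bp for shared and 352 bp for unshared AML1-ETO peaks at 48 h, and a wider peak has more room to overlap. An exception at the members was the AML1-ETO peak at -827 bp of CDKN2C.

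**Figure D4:**
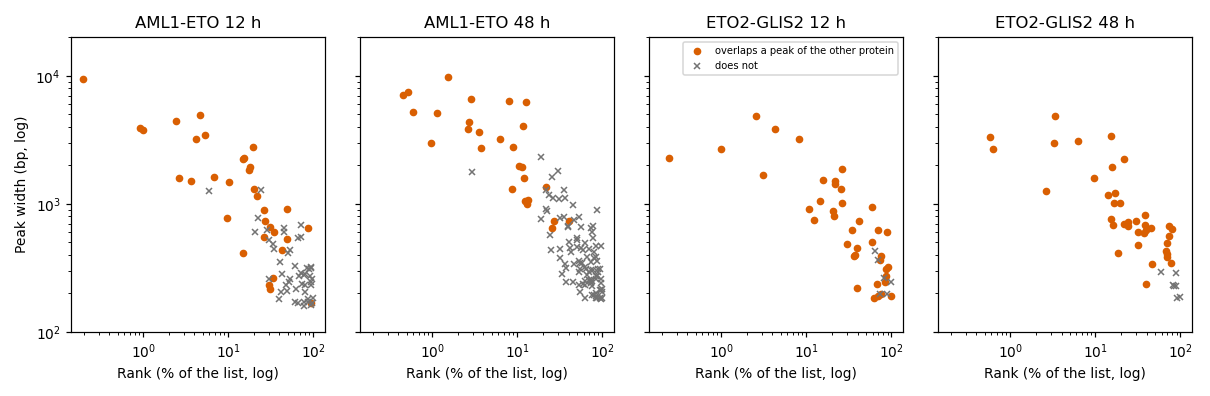
Width (bp, log scale, y axis) against rank (% of the list, log scale, x axis) of the member peaks in each list; filled circles overlap a peak of the other protein at the same time and crosses do not. The unshared peaks gather at low strength and small width, and the AML1-ETO cross near 2.91% at 48 h is the CDKN2C peak at -827 bp.

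Merging overlapping peaks of the 4 lists gave 146 bound stretches at the 10 genes. Of these, 22 (15.1%) were in all 4 lists, against 9.87% of the 129914 stretches of the genome, and 11 of the 22 were at a start site. AML1-ETO alone was listed in 106, ETO2-GLIS2 alone in 11 and both in 29, and 78 were listed for AML1-ETO at 48 h and nowhere else. These are 72.6%, 7.53%, 19.9% and 53.4% of the stretches, against 75.9%, 6.41%, 17.7% and 48.4% over the genome, and stretches in 1 list only made up 69.9% at the members and 68.2% over the genome. In the 22 stretches the strongest summits of the 4 lists spanned a median of 230 bp, and in 9 (40.9%) they lay within 200 bp, against 295 bp and 39.6% over the genome. The summits of the members were therefore about as close together as elsewhere. CCND3 had 6 stretches in all 4 lists, CDKN1A 4, CCND2 and CDK6 3 each, CDKN1B 2, and MYC, CCND1, CDKN2A and CDKN2C 1 each. The stretch at the CDKN2B start was not among them.

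Between 12 h and 48 h the number of AML1-ETO peaks at the 10 genes was 83 and 125, and that of ETO2-GLIS2 was 45 at both times. The whole lists went from 70833 to 105769 and from 28325 to 30096. For AML1-ETO, 9 genes had more peaks at 48 h than at 12 h, against 58.1% of all protein-coding genes, and CDKN2A had 3 at both times. For ETO2-GLIS2, MYC, CDK6 and CDKN1A had more, CDKN2A and CDKN2B the same number, and CCND1, CCND2, CCND3, CDKN1B and CDKN2C 1 fewer, against 29.4% of all genes with more and 22.3% with fewer. With the 28325 strongest peaks of each list, 2 members had more AML1-ETO peaks at 48 h (CCND1 and CCND3), 3 had fewer (MYC, CDK6 and CDKN1A) and 5 the same number, against 24.8% of all genes with more and 19.8% with fewer. The higher AML1-ETO count at 48 h was thus not seen in lists of equal length. Of the member peaks at 48 h, 36.0% (27.6 to 45.1) for AML1-ETO and 73.3% (58.1 to 85.4) for ETO2-GLIS2 were already listed at 12 h for that protein, counted by overlap, against 36.8% and 54.6% of the whole lists. Of those at 12 h, 84.3% and 77.8% overlapped a peak at 48 h, against 73.9% and 60.6%. The strongest AML1-ETO peak was wider at 48 h than at 12 h at 8 of 10 genes, by the most bases at CDKN1A (7422 against 3910 bp) and the fewest at CCND3 (9699 against 9481 bp), and narrower at CDKN2A and CDKN2B, which share it (3227 against 3454 bp). The median width of the whole list was 415 bp at 48 h and 360 bp at 12 h. The strongest ETO2-GLIS2 peak was wider at 48 h at 7 of 10 genes. These include CDKN2A and CDKN2B, which share it, and MYC, where it was a different peak at each time (-156 bp and 2366 bp). The median width of the whole ETO2-GLIS2 list was 399 bp at 48 h and 382 bp at 12 h. The share of all genes with a wider strongest peak at 48 h was not computed for either protein. Time cannot be told apart from the libraries, since each time point is a single library.

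**Figure D5:**
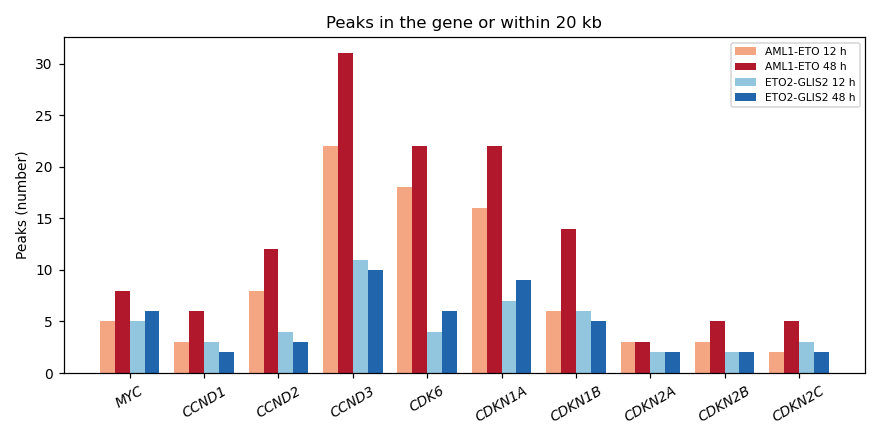
Number of peaks in the gene or within 20 kb (y axis, from 0) for each gene in the 4 lists. AML1-ETO at 48 h is the highest bar at every gene but CDKN2A, where it equals that at 12 h, with 31 peaks at CCND3 and 22 each at CDK6 and CDKN1A; window lengths differ between genes.

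Matches to the Runt letters were in a smaller share of member windows than of all windows in 3 of the 4 lists and in a like share for AML1-ETO at 48 h. Of the windows of 50 bases to either side of a summit, 5 of 83 (6.02%) for AML1-ETO at 12 h and 19 of 125 (15.2%) at 48 h held TGTGGT or TGCGGT, against 16.0% and 14.6% of all windows of these lists. Under ETO2-GLIS2 the same letters were in 1 of 45 windows (2.22%) at each time, against 14.1% and 12.8%. TGGGGGG was in 2 (4.44%) and 3 (6.67%) of the 45 ETO2-GLIS2 windows, against 5.09% and 5.01%, and in 2 of 83 (2.41%) and 2 of 125 (1.60%) AML1-ETO windows, against 2.31% and 2.05%. CAGCTG was in 8 of the 83 AML1-ETO windows at 12 h (9.64%, against 8.22%) and 18 of the 125 at 48 h (14.4%, against 7.84%). Under ETO2-GLIS2 it was in 6 (13.3%, against 9.76%) and 5 (11.1%, against 9.83%) of the 45 windows. CACGTG, the other E-box searched, was below the share of all windows in each list. It was in 0 of 83 (against 2.07%) and 2 of 125 (1.60%, against 1.95%) AML1-ETO windows. No ETO2-GLIS2 member window held it, against 2.76% and 2.82%. The AP-1 letters were in 1 of 83 (against 2.37%) and 1 of 125 (against 2.47%) AML1-ETO windows. No ETO2-GLIS2 member window held those, against 3.17% and 2.46%. No member window held CCGGAAGT. Of all windows, 0.347% and 0.333% held it for AML1-ETO at 12 h and 48 h, and 0.748% and 0.774% for ETO2-GLIS2. At such low shares its absence from so few member windows says nothing about ETS factors at these genes. The counts are small, and a match is a run of letters and not a measured contact.

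Among 59 other genes of the cell cycle and the MYC network, in 6 groups, 57 had a peak in their window for AML1-ETO at either time, 53 for ETO2-GLIS2 at 12 h and 54 at 48 h, and 52 had a peak in all 4 lists. A start-site peak was present at 55 and 52 of them for AML1-ETO and at 51 and 47 for ETO2-GLIS2. These shares (93.2%, 88.1%, 86.4% and 79.7%) were, like those of the 10 members, above the background of all protein-coding genes. A start-site peak in all 4 lists was present at 41 of the 59 (69.5%), against 35.8% of all genes. By group these were 7 of 10 G1 and S phase cyclins, kinases and partners, 3 of 5 further inhibitors and their turnover factors, 7 of 13 in the RB and E2F group, 8 of 11 G2 and M phase genes, 6 of 6 in the p53 pathway and 10 of 14 in the MYC family and MAX network, and the groups are too small to be set against each other. E2F7, a repressing E2F factor, and MYCN, a relative of MYC active in nerve cell precursors, had no peak in any list.

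The strongest start-site peaks of these genes at 48 h differed between the proteins. For AML1-ETO they were at MXI1 (rank 1065, 1.01% of the list), FBXW7 (rank 1218, 1.15%) and MNT (rank 1407, 1.33%). MXI1 and MNT are partners of MAX that oppose MYC, and FBXW7 marks MYC and cyclin E for degradation. For ETO2-GLIS2 they were at MXD3 (rank 66, 0.219%), another partner of MAX, MDM4 (rank 129, 0.429%), which holds p53 in check, and CDK4 (rank 201, 0.668%). At MNT the ETO2-GLIS2 rank was 423 (1.41%), close to that of AML1-ETO in percent of the list, and at MDM4 AML1-ETO had rank 1459 (1.38%). At MXI1 and FBXW7 ETO2-GLIS2 had rank 12224 (40.6%) and 9126 (30.3%), and at CDK4 AML1-ETO had rank 8310 (7.86%). MXD3 had no AML1-ETO summit within 1 kb of a start at 48 h, although an AML1-ETO peak of rank 1192 lay in its window.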

How the data were processed

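ChIP-seq libraries of U937-AE and U937-EG cells were compared as peak lists. Groups and times were taken from the titles; the treatment label of the 12 h samples names 48 h. Per the labels, the authors used Bowtie2 2.2.9, SAMtools 1.7 and MACS2 2.1.1.20160309 with hg19, and peaks were called on each ChIP library against input. MACS2 settings, duplicate removal and masking of artefact regions are not given in the sources used here. The deposited lists hold fold enrichment (a linear ratio), −log10 p-values and q-values, and a score that equals, up to rounding, 10 times the −log10 q, all computed by the authors' peak caller; depth cannot be read from them.

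Peaks of chromosomes 1 to 22, X and Y only were kept and ranked by −log10 q. Genes and start sites were from GENCODE release 44 lifted to GRCh37, and 0 peaks passed a chromosome end. Python 3.11.15, pandas 2.3.3, NumPy 2.4.6 and SciPy 1.17.1 were used; overlap, joining and window counts were tested on 2000 simulated peaks and against bedtools 2.31.1, with 0 wrong answers. Overlap needed 1 bp. Named genes were all 10 members and, of 59 pathway genes, the 3 best start-site ranks in each 48 h list and those without any peak. Members, gene lists and alternatives were chosen with earlier results of these data known. Inputs have no list and were not analysed here.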

Additional observations from a re-analysis of the deposited data

Results flagged for a closer look

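The number of peaks moved in opposite directions for the 2 proteins between 12 h and 48 h at 5 of the 10 genes, against 19.1% of all protein-coding genes. With 1 library per protein and time this difference was not tested. ETO2-GLIS2 had 1 peak fewer at 48 h at each of the 5, a difference of -1, while AML1-ETO had 3 more at CCND1, 4 more at CCND2, 9 more at CCND3, 8 more at CDKN1B and 3 more at CDKN2C. The AML1-ETO list had 70833 peaks at 12 h and 105769 at 48 h and the ETO2-GLIS2 list 28325 and 30096. With the 28325 strongest peaks of each list, numbers moved in opposite directions at CCND1 and CCND3, as before, and at MYC, CDK6 and CDKN1A, where AML1-ETO had fewer peaks at 48 h and ETO2-GLIS2 more, against 14.6% of all genes. CCND2, CDKN1B and CDKN2C then had as many AML1-ETO peaks at 48 h as at 12 h.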

How the results depend on the processing

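Every one of the 10 genes kept a peak in each list under all alternatives, except that the ETO2-GLIS2 list at 12 h had 9 genes with the gene body alone or a 5 kb flank. Start-site counts stayed at 8 to 10 genes, except with the principal start alone. There AML1-ETO had 7 genes at 12 h and 4 at 48 h, and ETO2-GLIS2 had 6 and 7. Of 128 comparisons of a count or share with an alternative, 87 stayed within 1.5 times the count or the interval of the share and 41 did not. In the usual order (AML1-ETO 12 h and 48 h, ETO2-GLIS2 12 h and 48 h), peaks at the genes numbered 44, 54, 24 and 31 at a −log10 q of at least 5, 27, 30, 21 and 23 at 10, 37, 36, 45 and 44 with equal list lengths, and 53, 65, 25 and 24 in the gene body alone. Joining peaks within 1 kb left 49 and 71 AML1-ETO peaks; a 5 kb flank left 80 AML1-ETO peaks at 48 h, and a 50 kb flank gave 68 ETO2-GLIS2 peaks at 48 h.

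The shared share of AML1-ETO peaks was 54.5% and 46.3% at a −log10 q of at least 5, 66.7% and 63.3% at 10, 75.7% and 69.4% with equal lengths, 22.9% and 8.0% with 50% of the peak covered, and 20.5% and 14.4% with summits within 200 bp. That of ETO2-GLIS2 peaks was 100% and 96.8% at 5, 100% at 10 at 48 h, and 37.8% and 40.0% with summits within 200 bp. The share of AML1-ETO peaks at 48 h also present at 12 h was 53.7% at 5, 76.7% at 10, 75.0% with equal lengths, 21.6% with 50% covered and 26.4% with summits within 200 bp; for ETO2-GLIS2 it was 91.3% at 10, 55.6% with 50% covered and 48.9% with summits within 200 bp. These alternatives differ by construction in the peaks they keep or in what counts as overlap. Ranking by fold enrichment gave another strongest peak at 2 of 40 gene and list pairs, CCND3 for AML1-ETO at 48 h (rank 3166) and MYC for ETO2-GLIS2 at 48 h (rank 5489). At 2 further pairs the same peak moved by over 1.5 times in rank, from 548 to 1542 at CDKN1A for AML1-ETO at 48 h and from 68 to 36 at CCND3 for ETO2-GLIS2 at 12 h. No paired analysis was possible because each group has 1 library and no test was made. With 1 clone per protein and no list for cells without a fusion, clone, library and protein cannot be told apart.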
